A study of Mus musculus with 19 samples.

Results

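The genes that govern the passage from G1 into S phase were examined in ipsilateral and contralateral retinal ganglion cells (iRGCs and cRGCs) of the mouse embryo at embryonic stage E16.5. The 10 genes were the D cyclins Ccnd1, Ccnd2 and Ccnd3, the E cyclins Ccne1 and Ccne2, the Cip/Kip inhibitors Cdkn1a, Cdkn1b and Cdkn1c, the Ink4 inhibitor Cdkn2c and the retinoblastoma gene Rb1. They were picked by symbol and by function, not by their values, and all 10 were found by Ensembl identifier among the 47069 genes of the count tables. RNA was sequenced from GFP-positive cells sorted by FACS, in 3 libraries per population. The iRGCs came from whole retinas of Slc6a4-Cre; Sun1-GFP embryos, in which the ET33 Sert-Cre transgene from GENSAT drives recombination. The cRGCs came from Pou4f2-Cre; Sun1-GFP embryos whose ventrotemporal retina, the source of most iRGCs, had been cut away, and in which Cre was targeted into the Pou4f2 (Brn3b) locus, so that the line carries an altered Pou4f2 allele. The zygosity of the embryos was not given in the sources used here. Both populations carried the CAG-[Stop]-Sun1-GFP cassette in Rosa26. The labels give the genotype of all 6 samples as WT, the strain as C57/DBA F1 and the sex as pooled male and female. Because every iRGC library came from 1 Cre line and every cRGC library from the other, population, Cre line and dissection cannot be told apart.

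D cyclins bind Cdk4 and Cdk6, and E cyclins bind Cdk2. The resulting kinases phosphorylate Rb and its relatives, which then release the E2F factors that switch on the genes of S phase. Ink4 proteins block Cdk4 and Cdk6 alone, while the Cip/Kip proteins p21 (Cdkn1a), p27 (Cdkn1b) and p57 (Cdkn1c) act mainly on the Cdk2 complexes. In the embryonic retina, Ccnd1 is the main D cyclin of dividing progenitors, and the inhibitors accompany the exit from the cycle that precedes differentiation into ganglion cells and other neurons.

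The iRGC libraries held 28193178 to 30874653 counted reads and the cRGC libraries 28274471 to 33638083. Levels are given as CPM, the reads of a gene set against all counted reads of its library, scaled by TMM, a factor that evens out differences in composition between libraries. The genes that define the populations were checked first. Zic2, the transcription factor of the ipsilateral program, averaged 155 ± 19.9 CPM in the 3 iRGC libraries and 61.0 ± 4.38 CPM in the 3 cRGC libraries (mean ± SD). Isl2, a contralateral factor, had 21.5 ± 2.40 and 95.8 ± 44.4 CPM, and Pou4f2 had 102 ± 29.6 and 227 ± 57.4 CPM. Slc6a4, whose regulatory sequence drives the ipsilateral Cre, did not follow the labels. It had 2.06, 33.4 and 116 CPM in iRGC1 to iRGC3 and 48.1, 35.4 and 30.5 CPM in cRGC1 to cRGC3, so that iRGC1 was below every cRGC library. A second library stood apart by vascular genes. Pecam1, which marks endothelium, had 9.65, 53.04 and 0.284 CPM in iRGC1 to iRGC3, and Rgs5, which marks the mural cells of vessels, had 3.76, 93.8 and 2.24 CPM, both highest in iRGC2. For this reason the counts of calls among the 10 genes are also given without iRGC1 and without iRGC2.

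RefSeq start sites were at hand for 5 of the 10 genes (Ccnd3, Ccne1, Cdkn1a, Cdkn1b and Cdkn2c). The 250 bases before the start are shown for 4 of them, an E cyclin and an Ink4 inhibitor that were both higher in iRGCs and 2 Cip/Kip inhibitors that went opposite ways. Capitals mark the GC box GGGCGG and the CCAAT box on either strand, with GRCm38.p6 coordinates. These were chr7:38107491-38107740 on the minus strand for Ccne1, chr4:109666757-109667006 on the minus strand for Cdkn2c, chr6:134920151-134920400 on the plus strand for Cdkn1b and chr17:29093519-29093768 on the plus strand, the downstream of 2 starts, for Cdkn1a.
Ccne1: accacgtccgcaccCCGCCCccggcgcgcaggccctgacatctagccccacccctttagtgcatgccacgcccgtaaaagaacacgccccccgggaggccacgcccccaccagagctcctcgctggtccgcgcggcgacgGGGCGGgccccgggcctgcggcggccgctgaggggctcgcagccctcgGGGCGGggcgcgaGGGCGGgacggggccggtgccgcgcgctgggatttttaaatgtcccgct
Cdkn2c: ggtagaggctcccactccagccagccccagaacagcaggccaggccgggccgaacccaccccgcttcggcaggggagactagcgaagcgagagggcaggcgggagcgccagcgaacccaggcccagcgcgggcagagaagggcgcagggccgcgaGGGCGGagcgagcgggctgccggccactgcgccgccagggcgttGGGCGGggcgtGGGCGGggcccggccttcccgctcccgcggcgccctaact
Cdkn1b: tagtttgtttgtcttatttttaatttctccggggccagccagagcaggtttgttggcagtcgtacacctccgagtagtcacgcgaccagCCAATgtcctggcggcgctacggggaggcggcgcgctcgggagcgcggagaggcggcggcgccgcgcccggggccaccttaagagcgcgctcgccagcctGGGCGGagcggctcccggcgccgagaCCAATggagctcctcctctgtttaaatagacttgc
Cdkn1a: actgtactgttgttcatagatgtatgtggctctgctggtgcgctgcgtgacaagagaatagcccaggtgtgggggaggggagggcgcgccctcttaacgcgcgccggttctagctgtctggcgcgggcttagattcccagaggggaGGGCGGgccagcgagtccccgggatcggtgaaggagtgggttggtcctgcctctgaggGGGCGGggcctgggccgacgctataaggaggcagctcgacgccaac

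The Ccne1 window held 4 GC boxes and the Cdkn2c window 3, the Cdkn1a window 2 and the Cdkn1b window 1, while 33.0% of 32536 windows of the same length before RefSeq starts held at least 1. CCAAT had 2 matches in the Cdkn1b window and none in the other 3 shown, against 33.8% of all windows. The E2F motif was searched as TTTNNCGC on both strands. It had no match in these 4 windows or in those of Ccnd3, the upstream start of Cdkn1a or the second start of Cdkn2c, and 4.31% of all windows held it. Such matches describe letters only. The upstream start of Cdkn1a and the second start of Cdkn2c had 0 GC boxes in their windows.

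Of the 10 genes, 7 were higher in iRGCs (Ccnd1, Ccnd2, Ccnd3, Ccne1, Ccne2, Cdkn1b and Cdkn2c) and 3 were lower (Cdkn1a, Cdkn1c and Rb1), at an adjusted p under 0.1 in the edgeR quasi-likelihood test across all tested genes. The background was broad, with 23.3% of the 15941 tested genes called higher and 23.1% called lower. Without iRGC1 the counts were 7 and 3, and without iRGC2 they were 7 and 2. The lower count fell to 1, Cdkn1c, without cRGC3 and also with plain library totals. The groups of libraries did not overlap for any of the 10, in a dataset where 27.1% of tested genes had all iRGC libraries above all cRGC libraries and 28.2% all below. The median log2 fold change of iRGCs over cRGCs was 1.96 over the 10 genes and -0.0031 over all tested genes. The 5 cyclins lay between 1.89 and 4.08 on this scale, and the 3 lower genes lay between -1.05 and -0.44. In sorted bulk RNA, more cells of a type and more RNA per cell cannot be told apart.

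**Figure D1:**
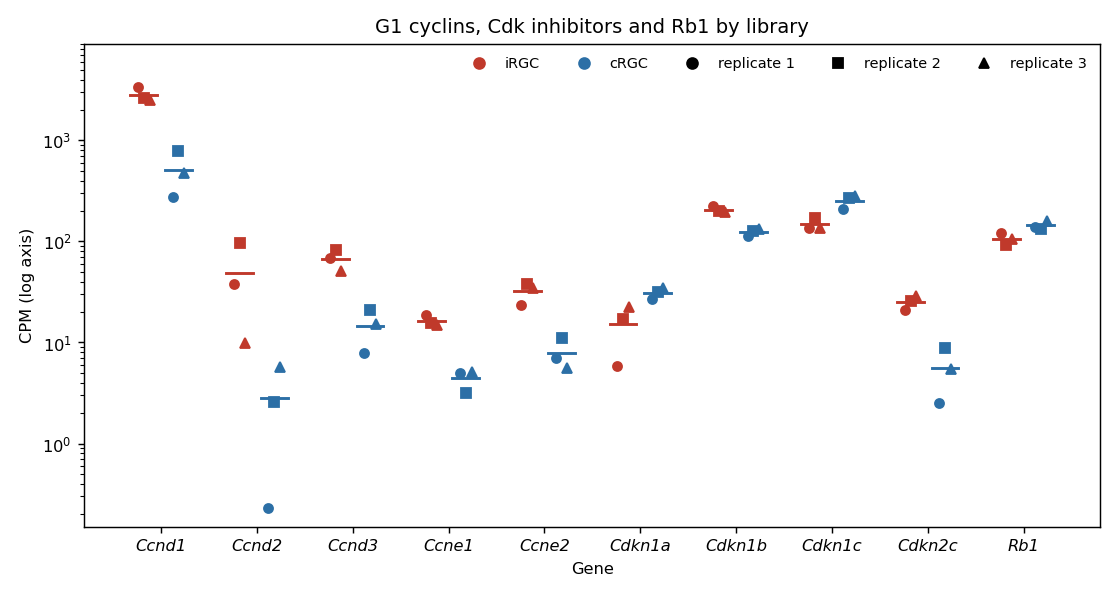
CPM of the 10 genes in each library, on a log axis, with the 3 iRGC libraries in red, the 3 cRGC libraries in blue, a symbol for each replicate number and a horizontal line at each mean. Ccnd1 lay at 2520.1 to 3362 CPM in iRGCs and 277 to 779 CPM in cRGCs, while Cdkn1a, Cdkn1c and Rb1 were lower in iRGCs.

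Among the D cyclins, Ccnd1 (ENSMUSG00000070348, GRCm38 chr7:144929931-144939925, minus strand) was by far the most abundant. It had 3362, 2649 and 2520.1 CPM in iRGC1 to iRGC3 and 277, 779 and 471 CPM in cRGC1 to cRGC3. The means were 2844 ± 453 and 509 ± 253 CPM (SD, n = 3), and the lowest iRGC library was 3.23 times the highest cRGC library. By CPM it ranked 1, 5 and 8 among all genes in the iRGC libraries and 745, 115 and 296 in the cRGC libraries. The log2 fold change was 2.48 (SE 0.329, edgeR adjusted p = 0.000539), or 5.58-fold, with 2.34 without iRGC1 and 2.53 without iRGC2. Within cRGCs, cRGC1 was lowest and cRGC2 highest, a spread of 2.81-fold against 1.33-fold within iRGCs.

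Ccnd3 (ENSMUSG00000034165, chr17:47505051-47599691, plus strand), the D cyclin best known from blood and muscle lineages, followed the same pattern at lower level. It had 68.9, 82.7 and 50.5 CPM in iRGCs and 7.80, 21.2 and 15.1 CPM in cRGCs. Its log2 fold change was 2.20 (SE 0.338, edgeR adjusted p = 0.00105). As for Ccnd1, cRGC1 was the lowest and cRGC2 the highest of the cRGC libraries.

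Ccnd2 (ENSMUSG00000000184, chr6:127125162-127152193, minus strand), a D cyclin of neural precursors, had the largest fold change of the 10 genes and also the widest scatter. Its counts were 1169, 3158 and 311 in iRGC1 to iRGC3 and 6, 74 and 176 in cRGC1 to cRGC3, or 37.6, 97.6 and 9.81 CPM and 0.231, 2.55 and 5.68 CPM. Replicates of 1 population thus differed by 9.95-fold in iRGCs and by 24.6-fold in cRGCs, and the nearest libraries, iRGC3 and cRGC3, differed by 1.73-fold. The log2 fold change was 4.08 (SE 1.00, edgeR adjusted p = 0.0109), with 3.05 without iRGC2 and 5.10 without cRGC3. Under limma voom its adjusted p was 0.137, past the threshold no longer, within a range of 0.000199 to 0.137 over 13 alternatives.

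The iRGC libraries ranked iRGC2, iRGC1 and iRGC3 for Ccnd2, and 8 of the 12 listed endothelial genes shared this order. Cdh5, the cadherin of endothelial junctions, had 81.3, 15.2 and 0.158 CPM in it, and Cd34 had 75.1, 22.0 and 0.505 CPM. Among the other 4, which did not share it, were Kdr with 320.5, 366 and 418 CPM, Cldn5 with 25.2, 26.02 and 11.8 CPM and Egfl7 with 24.5, 1.64 and 2.68 CPM in iRGC2, iRGC1 and iRGC3. Cdh5 was at 0 counts in all 3 cRGC libraries. The order was not confined to endothelial genes. In iRGC2, iRGC1 and iRGC3 the summed ciliary margin markers had 280, 160 and 155 CPM. Their most abundant gene, Tgfb2, did not share the order. The listed dissociation response genes summed to 3231, 1692 and 1296 CPM. The summed retinal progenitor markers ran differently, with 6504, 6807 and 5707 CPM. The part of vascular, ciliary margin or other RNA in the Ccnd2 result was not tested. Cdh5, Cldn5 and Egfl7 were named after their values had been seen.

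Both E cyclins, which activate Cdk2 at the border of S phase, were higher in iRGCs. Ccne1 (ENSMUSG00000002068, chr7:38097984-38107534, minus strand) had 18.5, 15.7 and 15.0 CPM in iRGCs and 5.00, 3.18 and 5.07 CPM in cRGCs, which gave 1.89 on the log2 fold change scale (SE 0.271, edgeR adjusted p = 0.00076). Ccne2 (ENSMUSG00000028212, chr4:11191351-11204779, plus strand) had 23.7, 38.1 and 34.9 CPM in iRGCs and 7.07, 11.0 and 5.55 CPM in cRGCs, which gave 2.03 on the log2 fold change scale (SE 0.296, edgeR adjusted p = 0.000807). The replicates of the 2 genes did not move together, since Ccne1 was highest in iRGC1, where Ccne2 was lowest, and lowest in cRGC2, where Ccne2 was highest. Leaving out any library kept Ccne1 between 1.72 and 2.02 and Ccne2 between 1.83 and 2.37.

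The Cip/Kip inhibitors split. Cdkn1b, which encodes p27, a brake on the cycle held in place mostly by its protein turnover, was higher in iRGCs, while Cdkn1a and Cdkn1c were lower. Cdkn1b (ENSMUSG00000003031, chr6:134920401-134925513, plus strand) had 226, 199 and 195 CPM in iRGCs and 112, 125 and 134 CPM in cRGCs. Its replicates were the closest of the 10 genes, within 1.16-fold in iRGCs and 1.19-fold in cRGCs, and its log2 fold change was 0.74 (SE 0.113, edgeR adjusted p = 0.00101). This difference was larger than the spread between replicates but smaller than those of the cyclins.

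Cdkn1c (ENSMUSG00000037664, chr7:143458339-143461050, minus strand), the imprinted gene for p57, had 137, 170.3 and 135 CPM in iRGCs and 209, 267 and 280.3 CPM in cRGCs. The means of 147 ± 20.0 and 252 ± 37.7 CPM differed by -0.78 on the log2 scale (SE 0.145, edgeR adjusted p = 0.00284), with -0.73 without iRGC1 and -0.89 without iRGC2. The highest iRGC library, iRGC2, lay below the lowest cRGC library, cRGC1, by a factor of 1.23. Of 10 listed neighbours 5 were tested, and Cars, Cd81 and Tssc4 were higher in iRGCs by 0.31, 0.41 and 0.39 on the log2 scale (edgeR adjusted p = 0.09, 0.0233 and 0.0497). Of all tested genes, 23.3% were called higher. Among 14 alternatives the call was lost in 7 for Cars, with adjusted p from 0.0115 to 0.25, and in 6 for Tssc4, from 0.00777 to 0.133. Kcnq1ot1, the noncoding RNA of the cluster, had 133, 125 and 35.7 CPM in iRGCs and 131, 97.9 and 101 CPM in cRGCs and did not pass (log2 fold change -0.17, edgeR adjusted p = 0.779). Nap1l4 did not pass either (-0.21, adjusted p = 0.195), but was called lower without iRGC3 and without cRGC1, with adjusted p from 0.0945 to 0.959 over 14 alternatives.

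Cdkn1a (ENSMUSG00000023067, chr17:29090976-29100727, plus strand), which encodes p21 and is a direct target of p53, had 5.92, 17.2 and 22.3 CPM in iRGCs and 27.0, 32.0 and 34.7 CPM in cRGCs. The cRGC libraries lay close together, and iRGC1 lay far below the other iRGC libraries. The log2 fold change was -1.05 (SE 0.400, edgeR adjusted p = 0.0677) and -0.66 without iRGC1 (adjusted p = 0.0341). The call was lost without iRGC2, without cRGC2, without cRGC3 and with plain library totals, with adjusted p from 0.0189 to 0.157 over all 14 alternatives. Within iRGCs the order of Cdkn1a was also that of the ganglion cell markers, whose summed level was 2434, 3374 and 5271 CPM in iRGC1 to iRGC3. In cRGC1 to cRGC3 these markers summed to 13590.5, 12242 and 14921 CPM, not the order of Cdkn1a. The part of ganglion cell content in the Cdkn1a result was not tested.

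Of 20 other p53 targets listed, 18 were tested, 4 were higher in iRGCs and 3 were lower, with a median log2 fold change of 0.22. These shares lie near the 23.3% higher and 23.1% lower of all tested genes, and nothing is read from them. Mdm2, the ligase that degrades p53 and the most abundant of the list, was higher by 0.40 (SE 0.105, edgeR adjusted p = 0.0158). The stress genes Ddit4l (2.11) and Sesn2 (1.45) were higher as well, and so was the cell death gene Pmaip1, at 2.57, 1.33 and 0.820 CPM in iRGCs and 0, 0.104 and 0 CPM in cRGCs. Pmaip1 had 0, 3 and 0 counts in cRGCs, so that it passed the filter on low counts through iRGCs alone. Its call is included in the 4 higher but is not read as a result. The 3 lower genes, named after their values had been seen, were the cell death gene Bbc3 (-1.42), the ribonucleotide reductase subunit gene Rrm2b (-1.005) and Ccng1 (-0.47). Bbc3 had 12.6, 19.8 and 26.7 CPM in iRGC1 to iRGC3 and Rrm2b 8.46, 14.4 and 18.0 CPM, the same order of iRGC libraries as Cdkn1a. Mdm2, called higher, shared this order, with 104, 111 and 121 CPM, while Pmaip1 ran the opposite way. In cRGC1 to cRGC3 Bbc3 had 57.8, 49.2 and 51.7 CPM, not the order of Cdkn1a. The call of Ccng1 was lost without iRGC2 and with library totals, with adjusted p from 0.00471 to 0.133 over 14 alternatives.

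Cdkn2c (ENSMUSG00000028551, chr4:109660876-109667189, minus strand), which encodes the Cdk4 and Cdk6 inhibitor p18, was higher in iRGCs, as were the cyclins and Cdkn1b. It had 21.03, 26.0 and 28.9 CPM in iRGCs and 2.499, 8.77 and 5.42 CPM in cRGCs, which gave 2.18 on the log2 fold change scale (SE 0.401, edgeR adjusted p = 0.00256). Its cRGC libraries took the order of Ccnd1 and Ccnd3, with cRGC1 lowest and cRGC2 highest. The related Cdkn2d, which encodes p19, differed in the opposite direction. It had 14.8, 34.2 and 29.8 CPM in iRGCs and 45.7, 49.7 and 53.6 CPM in cRGCs, which gave -0.92 on the log2 fold change scale (SE 0.273, edgeR adjusted p = 0.0256). The remaining Ink4 genes were barely detected and not tested. Cdkn2a had 45, 0 and 4 counts in iRGC1 to iRGC3 and Cdkn2b 10, 7 and 13, and both had 0 counts in each cRGC library, which allows up to 3 counts per library, or 0.0968 to 0.115 CPM, by counting error alone.

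Rb1 (ENSMUSG00000022105, chr14:73183673-73325822, minus strand), the pocket protein gene that restrains E2F, showed the smallest change of the 10. It had 120.3, 91.9 and 107 CPM in iRGCs and 138, 134 and 161 CPM in cRGCs, and the nearest libraries, iRGC1 and cRGC2, differed by 1.11-fold. The log2 fold change was -0.44 (SE 0.132, edgeR adjusted p = 0.0265), with -0.35 and an adjusted p of 0.123 without cRGC3. With library totals it was -0.23 and did not pass, within a range of adjusted p from 0.0129 to 0.186 over 14 alternatives. Rbl1, which encodes p107, a pocket protein typical of cycling cells, had 126, 97.9 and 82.5 CPM in iRGCs and 20.6, 29.9 and 22.0 CPM in cRGCs (log2 fold change 2.08, SE 0.202, edgeR adjusted p = 0.000217). Rbl2, which encodes p130, a pocket protein of resting cells, did not pass (log2 fold change -0.37, SE 0.186, edgeR adjusted p = 0.152), and its libraries overlapped. It was called lower without iRGC3, with adjusted p from 0.034 to 0.466 over 14 alternatives, and its difference from Rb1 was not tested.

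Reads from an overlapping gene on the other strand could not be separated with the sources used here, which give no strand setting. The overlap took 23.4% of the exon bases of Ccnd1 (with LTO1), 17.4% of those of Ccne2 (with Ints8), 14.9% of those of Rb1 (with Rcbtb2 and Lpar6), 7.87% of those of Ccnd2 and 4.11% of those of Ccnd3 (with Bysl). LTO1 itself had 800 to 1511 counts per library, against 7212 to 104526 for Ccnd1. Ints8 had more counts than its neighbour, with 1845 to 2800 per library against 172 to 1233 for Ccne2. Bysl had 907 to 1466, against 203 to 2676 for Ccnd3. Rcbtb2 had 2963 to 4228 and Lpar6 327 to 1177, against 2973 to 4990 for Rb1. The antisense genes that overlap Ccnd2 had 0 counts in every library. Genes outside the count tables overlapped Cdkn1c (Gm44732, 30.7% of its exon bases) and Cdkn1a (AC167363.2, 7.68%), and whether their reads were counted to these 2 genes depends on the strand setting.

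Per kilobase of exon, Ccnd1 led in iRGCs with 604 ± 96.3 CPM per kb (SD, n = 3), followed by Cdkn1c at 72.2 ± 9.79, Cdkn1b at 45.4 ± 3.66 and Rb1 at 17.7 ± 2.36. None of these neighbours overlapped between libraries. The other 6 genes lay between 4.26 and 9.43 CPM per kb, and each overlapped the next in order. In cRGCs, Cdkn1c came first with 124 ± 18.5 CPM per kb and Ccnd1 second with 108 ± 53.8, with overlapping libraries. Cdkn1b (27.2 ± 2.40) overlapped Rb1 (24.0 ± 2.44), Cdkn1a followed at 8.79 ± 1.10, and Ccnd2 was last at 0.2999 ± 0.291, apart from the gene before it. Ccnd1 stood above Cdkn1c in all 3 iRGC libraries and in cRGC2, and below it in cRGC1 and cRGC3.

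Ratios within a library do not depend on how libraries are scaled to each other. On counts per kb, the 3 D cyclins exceeded the 3 Cip/Kip inhibitors in every iRGC library, by 2.62, 2.14 and 2.23 on the log2 scale, and did not in cRGC1 and cRGC3, with -1.17, 0.0078 and -0.79 in cRGC1 to cRGC3. The means were 2.33 ± 0.253 and -0.65 ± 0.602, a difference of 2.98 (exact permutation test, two-sided, p = 0.1, the smallest that 3 against 3 can give, 0.2 after Benjamini-Hochberg adjustment over 4 quantities). Within the Cip/Kip group, Cdkn1c made up 56.6%, 63.2% and 57.4% in iRGCs and 76.1%, 78.2% and 77.8% in cRGCs (exact permutation test, two-sided, p = 0.1, adjusted 0.2). Cdkn1b took 37.4 ± 4.42% and 17.1 ± 0.989%, and Cdkn1a 3.50 ± 2.02% and 5.52 ± 0.133%. For the D cyclin ratio and the Cdkn1c share the populations did not overlap, although p could not go under 0.05. The Cdkn1a shares did overlap, with 5.44% in iRGC3 and 5.38% in cRGC2, and were not tested.

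**Figure D2:**
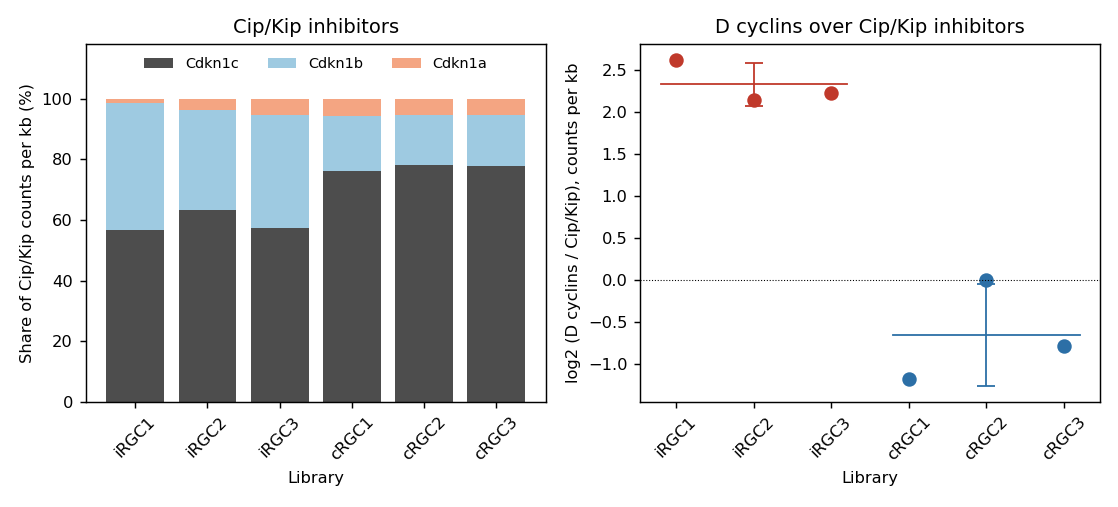
Left, the share of each Cip/Kip inhibitor in their summed counts per kb, in percent, for each library as a stacked bar. Right, the log2 ratio of the D cyclins to the Cip/Kip inhibitors in each library (points), with the mean (horizontal line) and SD (bar) of iRGCs in red and cRGCs in blue, at 2.33 and -0.65.

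For the makeup of the D and E cyclins the populations overlapped, and the test, whose smallest p is 0.1, could not have called a difference. Ccnd1 made up 97.9 ± 1.14% of the D cyclins in iRGCs and 98.2 ± 0.408% in cRGCs (exact permutation test, two-sided, p = 0.8, adjusted 0.9). The difference of -0.298 percentage points became 0.354 without iRGC2. Ccne1 made up 50.6%, 35.1% and 36.0% of the E cyclins in iRGCs and 48.1%, 27.5% and 54.5% in cRGCs (exact permutation test, two-sided, p = 0.9, adjusted 0.9), and the difference of -2.79 points became 2.77 without cRGC3.

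The other genes of G1 control were mostly higher in iRGCs. Of 58 listed, 53 were tested, and 39 were higher, 7 lower and 7 did not pass, beside 23.3% higher and 23.1% lower among all tested genes, with a median log2 fold change of 0.82. The Cdk partners of the cyclins all passed, with Cdk6 at 2.77 (SE 0.309), Cdk2 at 2.65 (SE 0.254) and Cdk4 at 0.81 (SE 0.119). Cdk4 was also the most abundant of these kinases, with 413, 433 and 391.7 CPM in iRGCs and 203, 242 and 263 CPM in cRGCs. Cdk6 had 163, 103 and 104 CPM in iRGCs and 11.99, 26.6 and 15.5 CPM in cRGCs, so that the 2 partners of the D cyclins differed unequally between the populations.

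All 10 E2F and DP genes were higher, with a median of 1.52. The activator E2f1 had 126, 84.1 and 111 CPM in iRGCs and 16.9, 24.6 and 21.7 CPM in cRGCs, which gave 2.34 on the log2 fold change scale (SE 0.196). E2f4, the factor that pocket proteins hold in resting cells, was higher by 0.77 (SE 0.135), E2f2 by 2.55 and the repressor E2f8 by 2.54. Skp2, the ubiquitin ligase subunit that sends p27 to degradation, was higher by 1.77 (SE 0.200), although the mRNA of its substrate Cdkn1b was higher too. Cdc25c, a phosphatase that activates Cdk1, was higher by 2.63, Cdk1 by 2.45 and Ccna2, the cyclin of S and G2 phase, by 2.45.

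Besides Cdkn2d, the 5 called pathway genes with the most negative values were Myc (-0.97), Fbxo31 (-0.76), Gsk3b (-0.62), Rbx1 (-0.44) and Ambra1 (-0.36). These genes come from the lower end alone. Of the 11 tested genes of the turnover of G1 proteins 5 were higher, among them Cul1 (0.36), Cul4b (0.61) and Fbxw7 (0.80), 4 were lower and 2 did not pass, with a median of 0.06. Among all tested genes 23.3% were higher and 23.1% lower. Fbxo31 and Ambra1 are receptors of ubiquitin ligases that target D cyclins, Rbx1 is the shared ring subunit of such ligases, and Gsk3b is a kinase that marks Ccnd1 for export and decay. Gsk3b had 353, 342 and 338 CPM in iRGCs and 548, 486 and 548 CPM in cRGCs (SE 0.0976, edgeR adjusted p = 0.00123). Myc, a transcriptional activator of G1 genes, had 9.75, 7.57 and 16.4 CPM in iRGCs and 28.4, 23.7 and 13.8 CPM in cRGCs, and its libraries overlapped. Its edgeR adjusted p was 0.0547, and the call was lost with the replicate block and without iRGC1, iRGC2, cRGC1 or cRGC2, in a range from 0.013 to 0.179 over 14 alternatives. The call of Ambra1 was lost with library totals only, in a range from 0.0071 to 0.253.

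**Figure D3:**
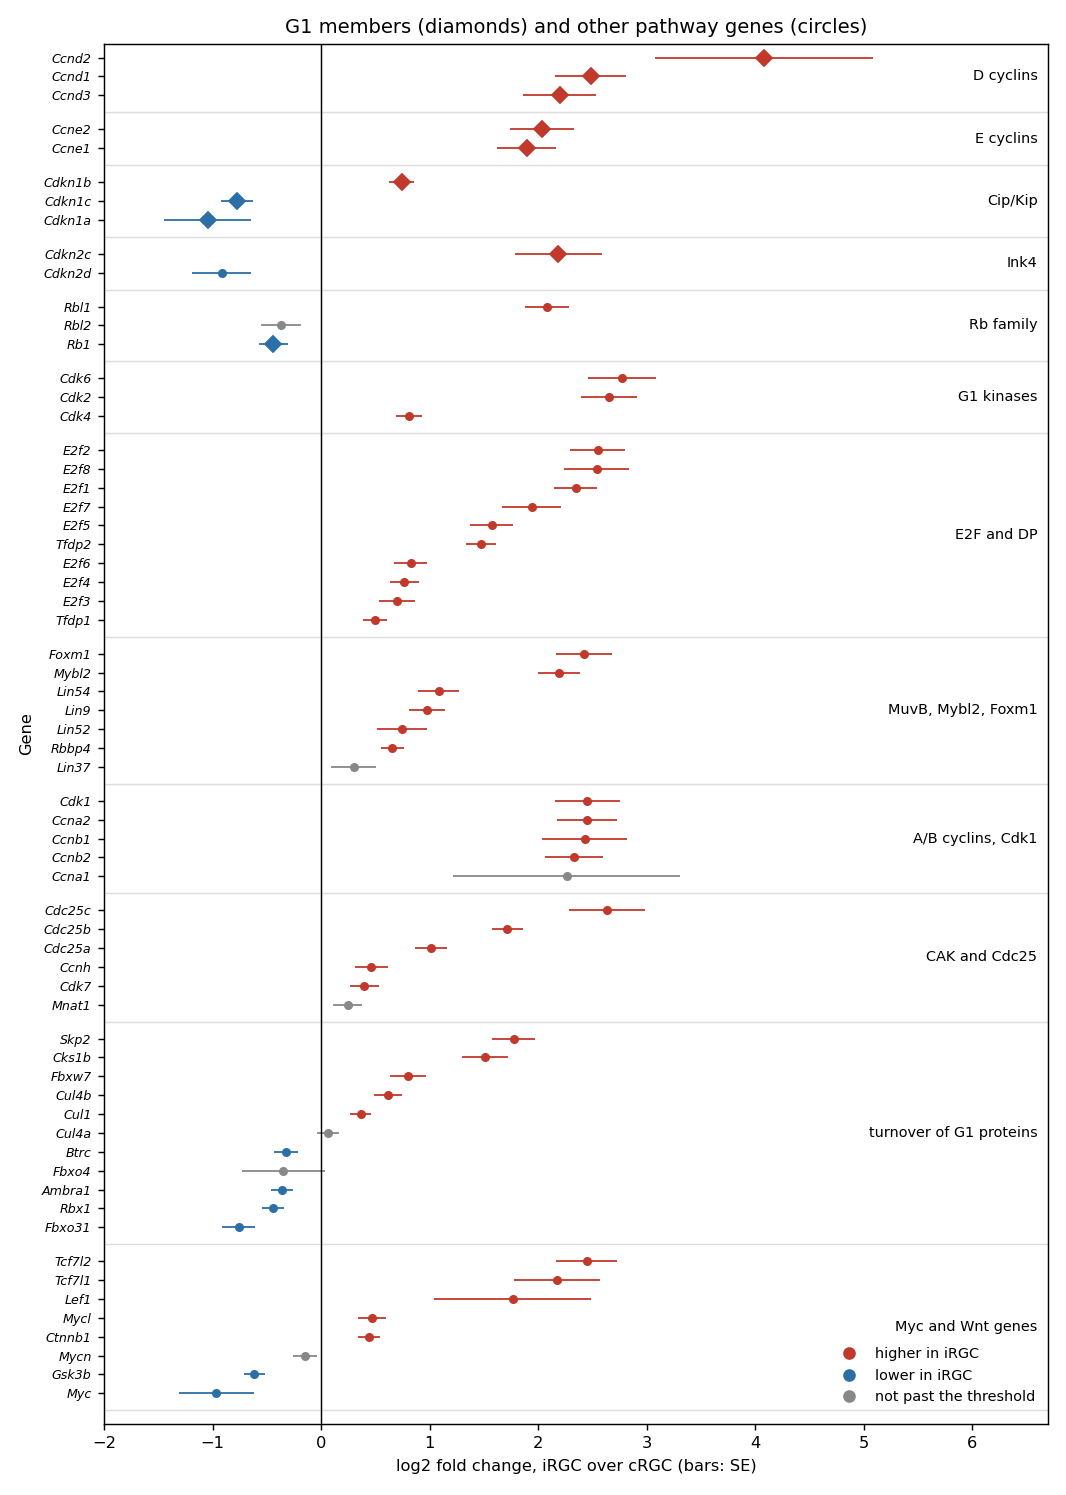
Log2 fold changes of iRGCs over cRGCs with their SE, by role, for the 10 G1 genes (diamonds) and the 53 other pathway genes tested (circles), in red where called higher in iRGCs, blue where lower and grey where not past the threshold. Within the inhibitors and the Rb family, Cdkn1b, Cdkn2c and Rbl1 lay to the right of 0 and Cdkn1a, Cdkn1c, Cdkn2d and Rb1 to the left.

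Genes of the later cycle and of dividing cells moved in the same direction. All 30 listed S-phase genes were higher in iRGCs, with a median of 2.08, and so were all 30 genes of G2 and M phase, with a median of 2.47. These counts and the marker counts that follow stand beside 23.3% higher and 23.1% lower among all tested genes. Retinal progenitor markers were also higher for 15 of 16 genes (median 2.37), with Six3 lower by 0.37 on the log2 scale (-0.37) and Dkk3 the most abundant. Their summed level was 6807, 6504 and 5707 CPM in iRGC1 to iRGC3 and 1335, 2041 and 1686 CPM in cRGC1 to cRGC3. Neurogenic precursor markers were higher for 12 of 12 genes, with summed levels of 1959 to 2032 CPM in iRGCs and 424 to 731 CPM in cRGCs. Ganglion cell markers were lower for 13 of 14, and Thy1, with overlapping libraries, did not pass (log2 fold change -2.06, edgeR adjusted p = 0.121). Nefm, a neurofilament gene and the most abundant of them, had 418, 525 and 975 CPM in iRGCs and 2131, 1810 and 2818 CPM in cRGCs. These markers were present in all 6 libraries. The ganglion cell list holds Pou4f1, Isl2 and Sncg, which the paper reports as contralateral, and Pou4f2, altered in the cRGC line. The progenitor list holds Lhx2, Sox2 and Sox9, which the paper reports as expressed in iRGCs. So neither list separates cell type from laterality. The part of progenitor content in the levels of the cyclins was not tested.

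The cRGC libraries ranked cRGC1, cRGC3 and cRGC2 from low to high both for the progenitor markers and for Ccnd1, Ccnd3 and Cdkn2c. The other G1 genes did not share this order. Ccnd2 was highest in cRGC3, Ccne1 lowest in cRGC2 and Ccne2 lowest in cRGC3. Within iRGCs Ccnd1 followed the progenitor markers, highest in iRGC1 and lowest in iRGC3. There Cdkn2c ran the opposite way, and Ccnd3 was highest in iRGC2. Set against the summed progenitor markers of the same library, Ccnd1 came to 49.4%, 40.7% and 44.2% in iRGCs and 20.8%, 38.2% and 28.0% in cRGCs, apart in all libraries. Against the summed S-phase genes it came to 86.5%, 73.0% and 69.7% in iRGCs and 38.3%, 65.2% and 49.9% in cRGCs, again apart. Against the summed G2 and M genes it came to 50.6%, 48.9% and 49.4% in iRGCs and 41.5%, 52.2% and 49.1% in cRGCs, with overlap. These ratios were computed after the levels had been seen and were not tested.

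Vascular and stress genes were also read. Endothelial markers summed to 475, 778 and 435 CPM in iRGCs and 88.0, 108 and 71.9 CPM in cRGCs, with Kdr the most abundant. Of 12 genes 7 passed the filter on low counts, 4 of them with under 10 counts in a cRGC library, so that no count of calls is read from this list. Kdr, a receptor also known in retinal progenitors, gave 366 of the 475 CPM in iRGC1, 320.5 of the 778 CPM in iRGC2 and 418 of the 435 CPM in iRGC3. Mural markers summed to 132, 275 and 108 CPM and to 20.8, 31.2 and 22.5 CPM. Notch3, which is not confined to mural cells, gave 113, 117 and 83.5 CPM of this in iRGCs and 17.1, 26.7 and 18.6 CPM in cRGCs. The dissociation response genes, led by Fos, summed to 1692, 3231 and 1296 CPM in iRGCs and 587, 679 and 724 CPM in cRGCs. Of these 11 genes 8 were called higher, beside 23.3% of all tested genes, and Dusp1 (log2 fold change 0.57), Hspa1a (-1.13) and Hspa1b (0.61) did not pass. Apart from Ccnd2, Ccnd3, Ccne2 and Cdkn1c were also highest in iRGC2 among the iRGC libraries, and all 4 kept their direction and their call without it.

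**Figure D4:**
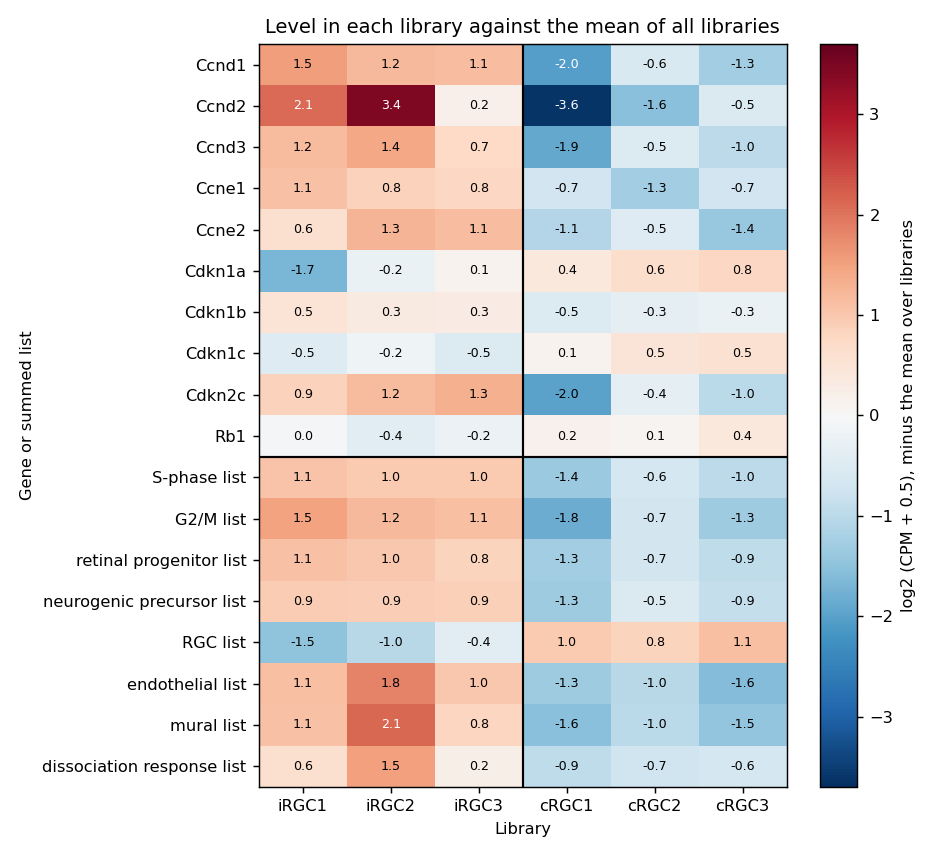
Level of each of the 10 genes (CPM) and of 8 lists (summed CPM) in each library, as log2 (CPM + 0.5) minus the mean over the 6 libraries, red above and blue below that mean. The cyclins and Cdkn2c are red in iRGCs and blue in cRGCs like the S-phase, G2/M and progenitor lists, while Cdkn1a, Cdkn1c and Rb1, like the ganglion cell list, have their 3 cRGC libraries above the mean.

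Genes whose log2 CPM ran most closely parallel over the 6 libraries were sought among 12076 genes for the leading member of each role. As all 6 libraries share the difference between the populations, high values were common, and 2177 genes had a Pearson r above 0.9 with Ccnd1, 1693 with Ccne2, 1818 with Cdkn2c, 455 with Cdkn1c and 256 with Rb1. For Ccnd1 the nearest were Efs, Mki67 and Top2a, the latter 2 being genes of dividing cells, with r of 0.999 each. For Ccne2 they were Tll1, Mfsd14b and Primpol, and for Cdkn2c Rrs1, Zcwpw1 and Map7. Cdkn1c ran closest to Zfp133-ps, Gm19391 and Dctn6, with r between 0.985 and 0.996, and Rb1 to Rrp7a, Arid1b and Maml3, with r between 0.985 and 0.993. Mki67 had 1112, 829 and 849 CPM in iRGCs and 89.6, 237 and 141 CPM in cRGCs, in the order of Ccnd1 except that iRGC2 and iRGC3 changed places.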

How the data were processed

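Poly(A) RNA of sorted cells was sequenced in 6 libraries, and 13 ATAC-seq samples were not analysed here. Per the submitters' processing notes and the study's methods, alignment to mm10 used HISAT2 2.1.0 and unique reads were assigned to genes with HTSeq 0.11.1, and the authors deposited 1 table of raw counts per library. The study itself used DESeq2 1.26.0. Rows that name no gene were left out. They held 12.3% to 23.2% of unique alignments as outside any gene.

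Symbols, positions and exon lengths came from GENCODE M21 on GRCm38, which named 46488 of the 47069 genes. Tests were run with edgeR 4.0.16 under R 4.3.3 (filterByExpr, TMM, quasi-likelihood test, no covariate) over 15941 genes, with Benjamini-Hochberg adjustment and a threshold of 0.1. The script was tested on simulated data. TMM gave factors from 1.03 to 1.10 for iRGCs and from 0.921 to 0.952 for cRGCs. The biological coefficient of variation was 36.3%. SE was the absolute log2 fold change over the square root of F. Alternatives used DESeq2 1.42.0, limma 3.58.1, other scalings and filters, the replicate number as a block, and each library left out. Permutation tests used scipy 1.17.1 on counts per kb of exon. Promoter windows came from RefSeq (GRCm38.p6).

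The genes, lists and tests were chosen with earlier results of these data known. Named besides the 10 genes were 11 fixed pathway genes, the 5 largest and the 5 smallest log2 fold changes among the called pathway genes outside those 11, the 3 genes most parallel to the leading member of each role (mean of at least 100 normalized counts), and of each other list the most abundant gene and up to 3 with the largest change. Genes named outside this rule, after their values had been seen, included Cul1, Cul4b, Fbxw7, Sesn2, Six3 and Kcnq1ot1. Zic2, Isl2, Pou4f2 and Slc6a4 were read to check the labels. Marker lists of 10 further cell types were summed and are given at the end. The labels number the replicates without tying them to separate litters, so that p-values measure the spread between these samples, which may be technical. The number of embryos per RNA library and the sequencing batches are not given in the sources used here.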

Additional observations from a re-analysis of the deposited data

How the results depend on the processing

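Over 139 refits of the 10 genes (14 alternatives each, 13 for Ccnd2, which had a library under 10 counts), 132 kept direction and call, 7 lost the call and 0 changed sign. The lost calls were those of Ccnd2 with limma voom, of Cdkn1a with library totals and without iRGC2, cRGC2 or cRGC3, and of Rb1 with library totals and without cRGC3. Plain library totals moved the median log2 fold change of all genes to 0.20 and the calls to 5100 higher and 2842 lower, against 3707 and 3688 with TMM, and left 1 of the 10 genes, Cdkn1c, lower. With an absolute log2 fold change above 1 also required, 6 of the 10 were higher and 1 lower, and of the pathway genes 24 were higher and 0 lower in edgeR, with 0 at an unadjusted p under 0.05, 0 in DESeq2 and 1 in limma voom. Leaving out each library gave 7 higher and 1 to 3 lower of the 10, and 36 to 40 higher and 5 to 8 lower pathway genes. It moved the Ccnd1 share difference from -0.718 to 0.354 and the Ccne1 share difference from -10.7 to 2.77 percentage points, both of which changed sign, while the Cdkn1c share stayed between -20.4 and -17.1 points and the D cyclin ratio between 2.72 and 3.31. Same-numbered libraries correlated at -0.0142, -0.0446 and -0.0669 in their deviations from their population means, and no library correlated best with its own number. With 3 libraries per population this cannot show whether same-numbered libraries shared a day or batch. With the replicate number as a block, 7 of the 10 were higher and 3 lower, and 39 and 6 of the pathway genes. Counts of a few reads, as for Ccnd2 in cRGC1 and Cdkn2a, limit what can be read from those genes.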

Other observations

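Marker lists of other cell types of the eye were summed as well. Their counts of calls stand beside 23.3% higher and 23.1% lower among all tested genes. Photoreceptor precursor markers, led by Prdm1, were higher in iRGCs for 5 of 6 tested genes, at 554, 442 and 427 CPM in iRGC1 to iRGC3 and 142, 193 and 173 CPM in cRGC1 to cRGC3. The remaining tested gene, Rxrg, was lower in iRGCs (log2 fold change -1.08, edgeR adjusted p = 0.00449). Amacrine markers, led by Tfap2b, were higher for 7 of 8, at 383, 348 and 477 CPM and 135, 179 and 124 CPM. Horizontal cell markers, led by Onecut2, were higher for 2 of 6, near that background, at 401, 384 and 417 CPM and 291, 318 and 419 CPM, with overlap. Ciliary margin markers, led by Tgfb2, are given without a count of calls, as several had few counts in cRGCs, and their sum of 280.2 CPM in iRGC2 exceeded the 160.0 and 155 CPM of the other iRGC libraries and the 19.8 to 42.1 CPM of cRGCs.

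Erythroid genes, led by Hbb-bs, summed to 12.2, 92.7 and 15.3 CPM in iRGCs and 0, 5.18 and 0.290 CPM in cRGCs, again highest in iRGC2. Microglial genes, led by Csf1r, summed to 18.2 to 27.0 CPM in iRGCs against 1.19 to 4.42 CPM, fibroblast genes to 9.74 to 36.3 against 8.73 to 10.4 CPM, pigment epithelium genes to 8.29 to 10.5 against 1.46 to 3.24 CPM, lens genes to 3.00 to 9.40 against 1.08 to 2.55 CPM and optic stalk astrocyte genes to 5.73 to 7.91 against 8.46 to 9.57 CPM. As few genes of these lists passed the filter on low counts, or passed it mostly with under 10 counts in a cRGC library, no count of calls is given for them.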
